A study of Drosophila melanogaster with 4 samples.

Results

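The X chromosome of *Drosophila melanogaster* is described here by the regions enriched for trimethylation of lysine 79 of histone H3 (H3K79me3), called clusters below. Its members were all clusters that the deposited lists place on the sequence X, with the separate heterochromatic sequence XHet left out. They numbered 1260 of 6264 clusters in replicate 1 (20.1%), 1324 of 6470 in replicate 2 (20.5%) and 1418 of 6943 in the list of the replicate set, called the combined list (20.4%). The X sequence is 22.4 Mb long on FlyBase release 5, the build of all positions given here.

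The study mapped the mark by chromatin immunoprecipitation and sequencing (ChIP-seq). It holds 2 H3K79me3 ChIP libraries, made with the antibody ab2621 of Abcam, lot 1, and 2 input libraries, which are chromatin without immunoprecipitation, each labelled as the input of 1 of the ChIP lists. All 4 came from nuclei of sieved heads of the wild-type strain Oregon-R, stage "Mixed Adult", from population cages, with no treatment or transgene named in the labels. Heads of many flies and cell types were thus pooled, and sex and exact age were not given in the sources used here. No label says that the libraries came from separate collections, so the spread between them may be only technical. With 2 libraries, the p-values show only whether the differences of both had the same sign, not how far apart they were. The lists name no genes, so the head origin could not be checked against marker genes.

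H3K79 methylation is set in the globular core of the nucleosome by the enzyme Dot1, called grappa in flies, and not on the histone tail. It is commonly found over the transcribed parts of genes, often with the strongest signal near their start. The fly X is present as a single copy in males, where the MSL complex with its roX RNAs binds transcribed X genes, deposits acetylation of lysine 16 of histone H4 and raises their output. Euchromatin of X runs from the telomere side, where positions are counted from 1, to the centromere side at the high end.

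Each cluster carries a start, an end and a score from the authors. Its definition was not given in the sources used here, and it is therefore compared only within its own list. It is given as a percentile, where 100 is the highest, except for the highest scores on X, which are also given as deposited. The lists hold no read counts, so depth is unknown, and all covered shares depend on the authors' threshold.

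H3K79me3 was spread along the whole of X but very unevenly. Clusters covered 25.2% of X in replicate 1, 25.6% in replicate 2 and 33.0% in the combined list. In 44 full windows of 500 kb the covered share ran between 6.19% and 50.7% as a mean of both libraries, with a median of 25.3%. The windows in the middle of this range lay between 18.5% and 31.6% (interquartile range). The SD between windows was 10.2 percentage points, against a pooled SD of 1.20 points between the libraries within a window. Both libraries drew the same profile: the median difference in a window was 0.950 points and the largest 4.86 points. Coverage was higher in replicate 2 in 28 windows and higher in replicate 1 in 16. Across the 44 windows, which are not replicates, rank correlation between the libraries (Spearman's rho) was 0.98 and Pearson's r 0.99.

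**Figure D1:**
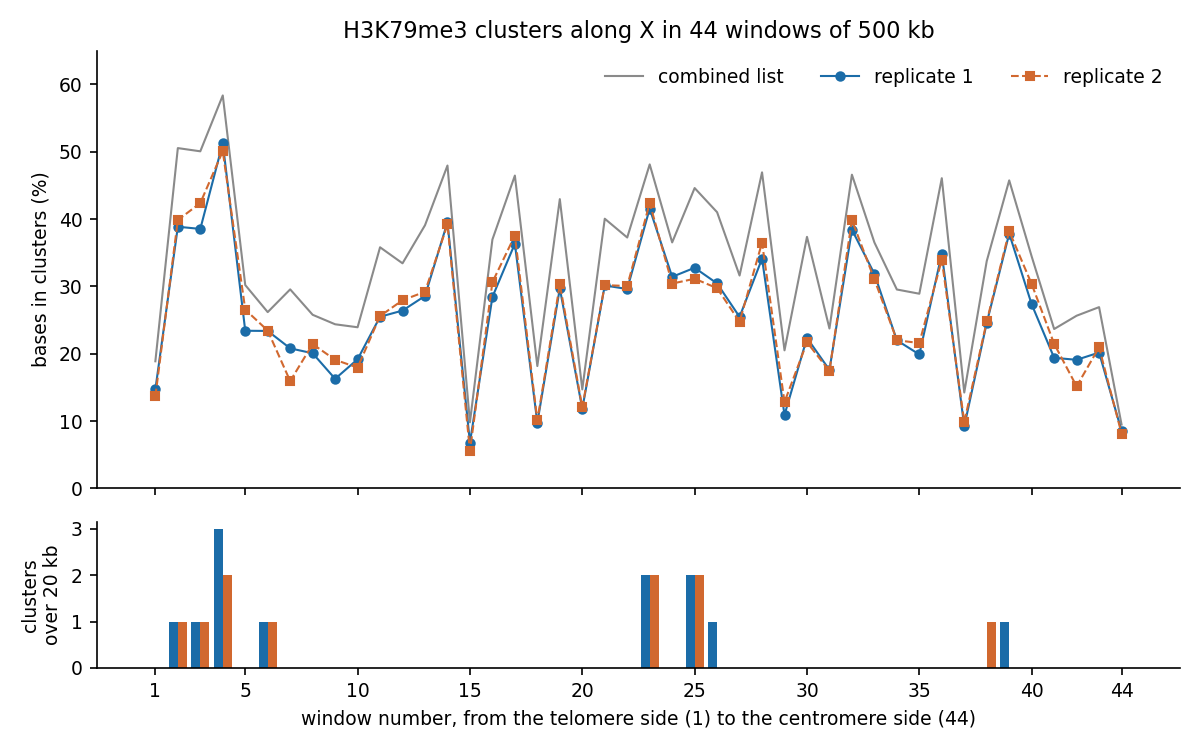
Share of bases in H3K79me3 clusters (%, upper panel) and number of clusters wider than 20 kb (lower panel) in each 500 kb window of X, ordered from the telomere side to the centromere side. Lines with circles and squares are replicates 1 and 2, the grey line is the combined list; both replicates peak in window 4, at 51.3% and 50.1%, and are lowest in window 15, at 6.79% and 5.60%.

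The densest window lay at 1.5 to 2.0 Mb, where clusters covered 51.3% in replicate 1 and 50.1% in replicate 2. It belonged to a dense stretch close to the telomere side, since the windows at 1.0 to 1.5 Mb (38.5% and 42.4%) and at 0.5 to 1.0 Mb (38.9% and 39.9%) were the third and the fifth densest. The second densest window lay near the middle of X, at 11 to 11.5 Mb, with 41.6% in replicate 1 and 42.4% in replicate 2. The fourth, at 6.5 to 7.0 Mb, had 39.5% and 39.2%. These last 4 windows were close together in coverage, with means between 39.4% and 42.0%, and their order depended on the list used.

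The emptiest window of both libraries, at 7.0 to 7.5 Mb, was the direct neighbour of the fourth densest. It had 6.79% of its bases in clusters in replicate 1 and 5.60% in replicate 2, and the step of 33.2 points between both windows was the largest along X. The window at 21.5 to 22.0 Mb, the last full one on the centromere side, had 8.55% and 8.15%. The other 3 lay inside the arm. Coverage was 9.22% in replicate 1 and 9.88% in replicate 2 at 18.0 to 18.5 Mb, 9.74% and 10.1% at 8.5 to 9.0 Mb, and 10.9% and 12.8% at 14.0 to 14.5 Mb. All 5 held a stretch of at least 135576 bases without a cluster in each library.

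At this scale the coverage of a window was nearly unrelated to that of the next one, taken over the whole of X. Between a window and the next one rho was 0.05 and r was 0.02 over 43 pairs of neighbours, as a description. The median step between neighbours was 9.46 points. The same rho lay between 0.06 on 2R and 0.22 on 3L for the autosomal arms. With windows of 1 Mb it was -0.030 on X.

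Dense windows held more clusters, wider clusters, or both. Across the 44 windows coverage went with the number of clusters (rho 0.86, r 0.83) and less closely with their mean width (rho 0.59, r 0.58). Number and mean width were themselves only weakly related (rho 0.18, r 0.08). These are descriptions, since coverage is built from both quantities. Windows held between 9.5 and 46 clusters and their mean width ran between 2544 and 7692 bases, as means of both libraries. The window at 11 to 11.5 Mb had few clusters for its rank, 25 and 30 clusters in replicates 1 and 2, and wide ones, with means of 8322 and 7061 bases. Its mean width was the greatest in replicate 1, while in replicate 2 the window at 2.5 to 3.0 Mb had a greater one, 7646 bases. At 1.5 to 2.0 Mb there were 33 and 34 clusters with mean widths of 7435 and 6871 bases. At 6.5 to 7.0 Mb, in contrast, 43 and 44 clusters had mean widths of 4601 and 4459 bases.

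A pair of windows picked after their values had been seen shows number and width going apart. The window at 13.5 to 14.0 Mb had the most clusters, 44 in replicate 1 and 48 in replicate 2, but they were narrow, with means of 3886 and 3811 bases, and covered 34.1% and 36.5%. The window at 9.5 to 10.0 Mb had 10 and 11 clusters, among the fewest, yet they were wide, with means of 6400 and 5942 bases, and covered 11.8% and 12.1%.

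**Figure D2:**
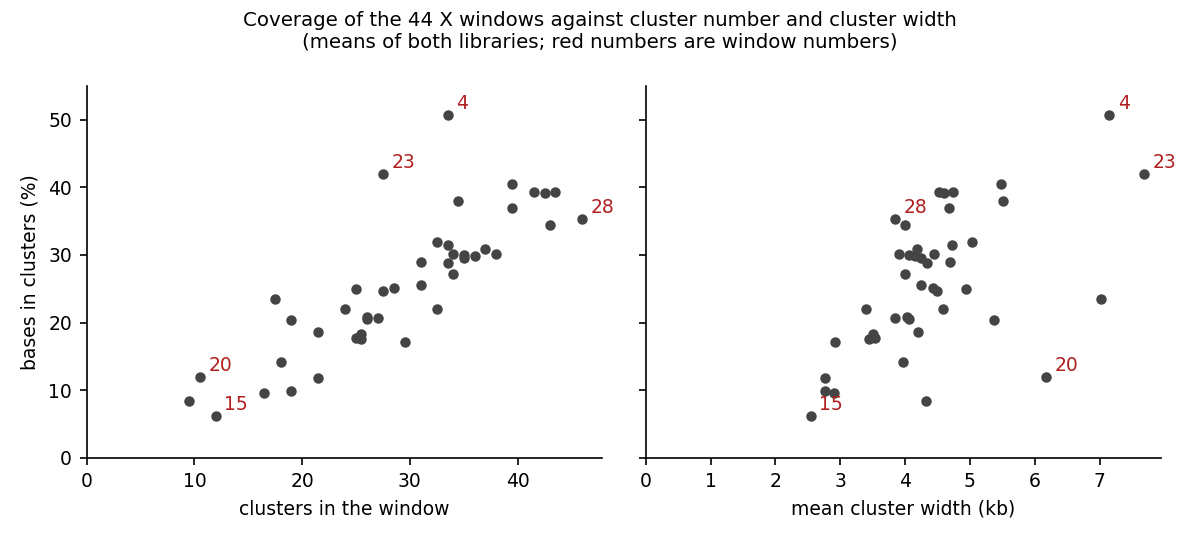
Covered share (%) of the 44 X windows against the number of clusters in the window (left) and against their mean width in kb (right), as means of both libraries. Each point is 1 window and red numbers give the window number; windows 4 and 23 stand high for their number of clusters, and window 20 stands low for its width.

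On a larger scale X was most covered in its middle and near the telomere side. With X cut into 5 equal parts, the share was 27.9% ± 0.40 in the part next to the telomere side and 24.3% ± 0.23 in the second. It was 29.4% ± 0.039 in the third, 25.9% ± 0.32 in the fourth and 19.5% ± 0.26 in the part next to the centromere side (SD, n = 2 libraries). The differences between the parts were larger than these SDs. The last part also had the fewest clusters, 206 ± 4.2. The third had 282.5 ± 0.71 and the fourth 291.5 ± 18, and which of them had more differed between the libraries.

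Coverage of X was low next to the centromere side, in both libraries, and it was also low there on 2L, 2R and 3L. The last 2 Mb of X had 12.6% of their bases in clusters in replicate 1 and 11.9% in replicate 2, against 26.5% and 26.9% of the rest of X. The mean difference was -14.4 points ± 0.81 (SD, n = 2), with the same sign in 2 of 2 libraries (two-sided exact permutation test over the libraries, p = 0.5, the smallest that 2 libraries allow). Within the last 1 Mb 6.92% ± 0.27 was covered, and within the last 4 Mb 20.5% ± 0.31. The last 4 Mb also held a dense window, at 19.0 to 19.5 Mb, with 37.8% and 38.2%. The telomere side had no such deficit over 2 Mb, with 36.2% ± 0.46 against 24.4% ± 0.21 of the rest. Its first 500 kb were sparse, however, with 14.7% and 13.7%. The low coverage at the centromere side was not particular to X. As means of both libraries, the full window nearest that side had 8.35% on X. The corresponding windows had 2.32% on 2L, 4.43% on 2R and 0.627% on 3L. On 3R no window was below 10.7%. The deficit of X was not tested against that of the autosomal arms.

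Single clusters on X were short. In replicate 1 their median width was 3259.5 bases, and in replicate 2 it was 3109.5 bases, with interquartile ranges of 2061 to 5562 and 2001 to 5385 bases. The narrowest measured 1301 and 1302 bases, nearly the same as on the autosomal arms (1302 and 1301 bases). The widest on X measured 36523 and 38581 bases. Clusters of over 5 kb up to 20 kb were 28.02% of X clusters in replicate 1 and 27.0% in replicate 2, and they held 52.2% and 51.2% of the covered bases. As a mean of both libraries the median was 3184.5 ± 106 bases for X and 3576 ± 61 bases for 2L, 2R, 3L and 3R together (SD, n = 2). The difference of -392 bases had the same sign in both libraries (exact permutation test, p = 0.5, the smallest possible). It shrank to -117.5 bases in the combined list and grew to -757 bases when neighbours closer than 1000 bases were joined. The combined list also held narrower clusters, down to 1001 bases on X and on the autosomal arms, so its medians are not directly comparable with those of the libraries.

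**Figure D3:**
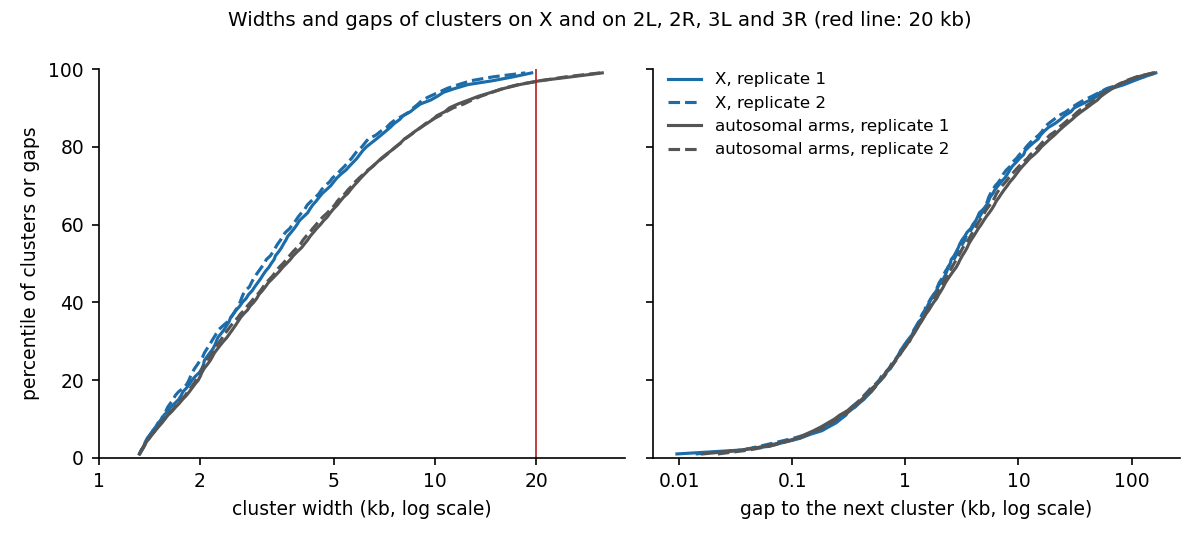
Percentiles of cluster width (left) and of the gap to the next cluster (right), both in kb on a log scale, for X (blue) and for 2L, 2R, 3L and 3R together (grey), in replicate 1 (solid) and replicate 2 (dashed). The X curves of width lie left of the autosomal ones from the middle upwards, and the red line marks 20 kb.

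Domains wider than 20 kb were few on X. They numbered 12 of 1260 X clusters in replicate 1 and 10 of 1324 in replicate 2, which is 0.952% and 0.755%. Over all sequences 2.67% of clusters passed this width in replicate 1 and 2.61% in replicate 2. On the autosomal arms alone it was 3.15% and 3.13%, with arm means between 2.58% on 2L and 3.74% on 3L. The mean difference of X from the autosomal arms was -2.29 points ± 0.13 (SD, n = 2; two-sided exact permutation test over the libraries, p = 0.5, the smallest possible). In the combined list 35 of 1418 X clusters were over 20 kb, or 2.47%, against 4.32% of that whole list. The X domains held 5.42% of the covered bases of X in replicate 1 and 4.78% in replicate 2, against 17.8% and 17.4% for their autosomal counterparts. At a limit of 30000 bases, which few X clusters reach, the difference was -0.978 points.

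In the library lists, nearly all of these long domains lay in a pair of intervals. Of the 12 in replicate 1, 6 started within the first 3 Mb and 5 between 11 and 13 Mb. Of the 10 in replicate 2, 5 and 4 did. Both intervals together are 22.3% of X and held 24.0% of its clusters in replicate 1 and 23.9% in replicate 2. Their bounds were set after the positions had been seen, so no test is given. In the combined list, 15 of the 35 long domains started there.

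Near the telomere side, replicate 1 had long domains from 755745 to 778204 and from 1484556 to 1513013. A tight series of 3 followed, from 1765784 to 1794140, from 1799809 to 1821372 and from 1856137 to 1882487, and then one from 2540509 to 2567554. Replicate 2 matched 5 of these 6 with long domains of its own, from 755767 to 778406, 1478327 to 1513286, 1799427 to 1821151, 1858228 to 1885413 and 2528158 to 2566738. The domain that starts at 1765784 met 2 clusters of replicate 2, the wider of 19694 bases, just under the limit. The first 2 of the tight series stood at the 99.2 and 98.6 percentile of score in replicate 1.

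In the middle of X, the domains from 11003079 to 11023624 and from 11386967 to 11413655 in replicate 1 had near-identical partners in replicate 2, from 11003074 to 11023676 and from 11386933 to 11414868. The partner of the first stood at the 99.9 percentile of score in replicate 2. Next came the widest X domain of replicate 1, 36.5 kb from 12097537 to 12134059, followed by one from 12143216 to 12164535. Replicate 2 divided the same sequence differently, with domains from 12098806 to 12125334 and from 12125522 to 12158053. The combined list joined all of it into the longest X domain, 69.3 kb from 12097580 to 12166832, which was 98.0% covered in replicate 1 and 95.9% in replicate 2. The domain from 12603839 to 12628906 in replicate 1 was broken into 3 clusters in replicate 2, the widest of 11686 bases.

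Outside both intervals each library had 1 long domain, at different places. In replicate 1 it ran from 19270665 to 19292851, where replicate 2 had 2 clusters of at most 17486 bases that covered 95.4% of it. In replicate 2 it ran from 18751757 to 18773401, where replicate 1 had 2 clusters of at most 17932 bases that covered 97.0%. The other library covered at least 95.4% of each of these 22 domains. Where a long domain had no long partner, the other library covered the same sequence with 2 or 3 shorter clusters.

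After the longest one, the longest X domains of the combined list ran over 63.6 kb from 19251758 to 19315344, 46.1 kb from 1467198 to 1513301, 43.1 kb from 11386910 to 11430035 and 42.6 kb from 1856069 to 1898624. The 63.6 kb domain was made of 7 clusters in replicate 1, which covered 90.2% of it, and of 9 clusters in replicate 2, which covered 92.2%. Scores of long X domains ranged between the 64.4 and 99.2 percentile in replicate 1 and between 73.4 and 99.9 in replicate 2. Just above the limit lay X clusters of 20546, 21320 and 21564 bases in replicate 1 and of 20603, 21645 and 21725 bases in replicate 2. Just below lay clusters of 19558, 19248 and 18875 bases in replicate 1 and of 19694, 19379 and 19377 bases in replicate 2.

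Long domains were also rarer on X than on the autosomal arms, in both libraries, when neighbours closer than 1000 bases were joined. After joining, 39 of 891 X domains were over 20 kb in replicate 1 (4.38%) and 42 of 936 in replicate 2 (4.49%). On the autosomal arms 7.74% and 7.61% were. The longest joined X domain was again the one near 12.1 Mb, of 68.6 kb in replicate 1 and 67.4 kb in replicate 2. The second was one that no single cluster showed, 60.5 kb from 6135426 to 6195903 in replicate 1 and 60.7 kb from 6135076 to 6195810 in replicate 2, each built of 6 clusters.

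Gaps on X were mostly short, with a heavy tail. Neighbouring clusters of replicate 1 lay a median of 2496.5 bases apart and those of replicate 2 a median of 2550 bases, and 29.3% of gaps were under 1 kb in each. X gaps had a median of 2523 ± 38 bases, against 2817 ± 173 bases on the autosomal arms (SD, n = 2). The difference of -294 ± 210 bases had the same sign in both libraries, and its spread was nearly as large as itself (exact permutation test, p = 0.5, the smallest possible). It did not hold against each arm. The median on 2L was 2574.5 ± 141 bases, below X in replicate 1 (2475 bases) and above X in replicate 2 (2674 bases).

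At percentile 90 X gaps reached 30134 ± 1336 bases, against 38617 ± 2138 bases for autosomal gaps (SD, n = 2), but very long gaps ran the other way. Gaps over 100 kb numbered 40 on X in replicate 1 and 39 in replicate 2, or 1.76 ± 0.032 per Mb, against 1.30 ± 0.015 per Mb on the autosomal arms. They took up 29.0% ± 0.59 of the length of X, against 21.4% ± 0.17 of the autosomal arms (SD, n = 2). Each of the 4 arms was below X by this measure, with means between 15.7% on 2R and 25.3% on 3L. Without the 2 Mb at the centromere side of every arm, X had 25.02% ± 0.64 and the autosomal arms 18.8% ± 0.059, a comparison added after the values had been seen. The order of the arms depended on the limit. Gaps over 50 kb took up 43.1% of X and 39.6% of the autosomal arms, as means of both libraries. On 2L they took up 44.2%, more than on X. The longest gap on 3L measured 506 kb, also as a mean. On X the longest gap measured 375 kb in replicate 1 and 345 kb in replicate 2, at different places. No p-value below 0.5 can come from 2 libraries.

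Gaps over 100 kb were most numerous in the emptiest windows. With the windows ranked by coverage into classes of 11, the gaps over 100 kb numbered 18, 11, 7 and 4 in replicate 1, in order from the emptiest class to the densest. In replicate 2 they numbered 15, 12, 7 and 5. The median gap in the same order was 2761, 2955, 2414 and 2288 bases in replicate 1 and 4075, 2634, 2744 and 1899 bases in replicate 2. The classes were formed from coverage, of which gaps are the complement, so this is a description.

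The longest stretch of X with no cluster in any of the 3 lists ran over 344 kb from 21501566 to 21846055, 0.577 Mb from the centromere-side end of the sequence. A stretch of 284 kb from 20396620 to 20680547 and one of 212 kb from 21259670 to 21471807 also lay towards that end. The remaining pair of the longest 5 were inside the arm. One of 282 kb ran from 7220269 to 7502455 and filled most of the emptiest window. The other, of 278 kb from 9676080 to 9954028, was part of a gap of 375418 bases in replicate 1 and of 280091 bases in replicate 2. In all, 34 such stretches over 100 kb made up 23.4% of X, and their centres fell in 28 different windows.

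Wider clusters had higher scores on X, with rho of 0.75 over 1260 clusters in replicate 1 and 0.77 over 1324 clusters in replicate 2, as a description across clusters. Along X the median score percentile of a window ranged between 40.5 and 77.8 as a mean of both libraries. It followed the mean width of the clusters in the window (rho 0.76, r 0.76, 44 windows) more closely than the coverage (rho 0.38, r 0.36). The dense window at 11 to 11.5 Mb stood high, with medians of 77.7 in replicate 1 and 76.5 in replicate 2. The sparse one at 8.5 to 9.0 Mb had 32.7 in replicate 1, the lowest there, and 48.2 in replicate 2, where the lowest window had 45.4.

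Short clusters scored higher on X than on the autosomal arms of the same list. Among clusters of up to 2000 bases, the median score percentile was 27.4 on X and 10.7 on the autosomal arms in replicate 1, and 34.3 on X and 9.82 on the autosomal arms in replicate 2. Each autosomal arm taken alone had a mean of both libraries between 9.69 on 2L and 10.96 on 2R, and X had 30.9 ± 4.9 (SD, n = 2). For clusters of over 2000 up to 4000 bases the medians were 52.2 on X against 37.1 in replicate 1, and 57.1 against 36.4 in replicate 2. The difference narrowed with width, to 4.92 points in replicate 1 and 8.35 points in replicate 2 for clusters of over 4000 up to 8000 bases, and was at most 9.08 points in the wider classes.

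Over clusters of all widths, the median percentile of an X window was above the median of all autosomal clusters in 34 of 44 windows in replicate 1 and in 42 of 44 in replicate 2. Autosomal windows were not counted in the same way, so these counts have no reference. The sign of the difference between X and autosomal clusters was the same in 2 of 2 libraries for every width class, and 2 libraries allow no exact p below 0.5. In the combined list the difference was -1.96 points for the 35 X domains over 20 kb. Without the 2 Mb at the centromere side, clusters of up to 2000 bases had medians of 30.3 ± 5.5 on X and 10.5 ± 0.68 on the autosomal arms (SD, n = 2).

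**Figure D4:**
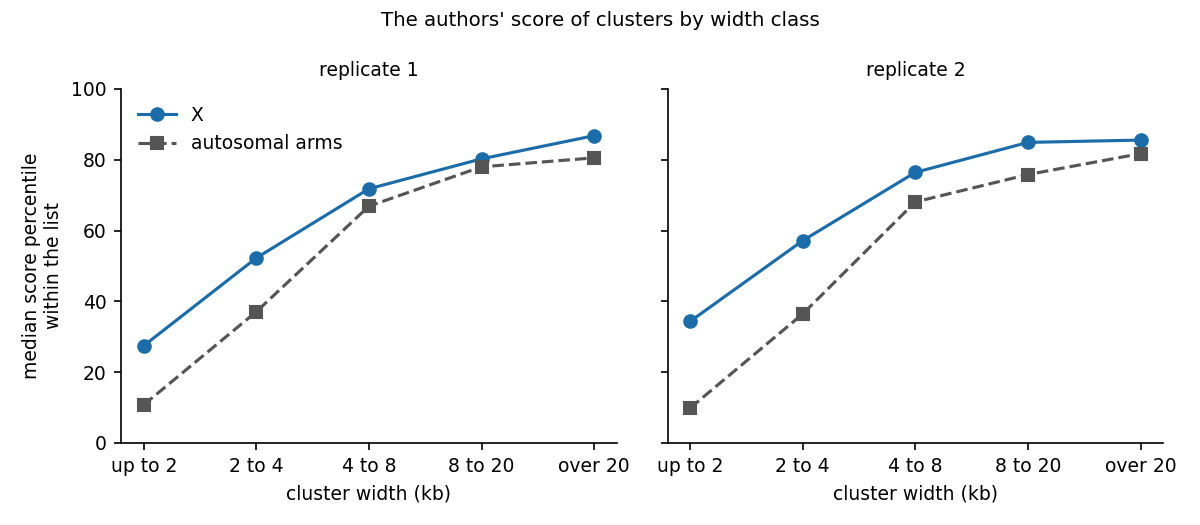
Median percentile of the authors' score within a list, by class of cluster width in kb, for X (circles) and for 2L, 2R, 3L and 3R together (squares), with 1 panel per library. The X points lie above the autosomal ones in every class, most of all for clusters of up to 2 kb, at 27.4 against 10.7 in replicate 1 and 34.3 against 9.82 in replicate 2.

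The clusters with the highest scores on X were wider than its median cluster, though all were under 20 kb. In the combined list they ran from 15771201 to 15781059 (score 1.74), from 18271439 to 18279907 (1.74), from 17551809 to 17563526 (1.73), from 11467123 to 11473248 (1.72) and from 15606987 to 15625725 (1.71). Their widths lay between 6126 and 18739 bases, against a median of 3395.5 bases for all X clusters of that list. All 5 met 1 cluster in each library, at or above the 99.3 percentile of score in both, and ranked between 11 and 18 in the whole list. The second of them stood in the sparse window at 18.0 to 18.5 Mb.

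Both libraries marked largely the same sequence on X. Of the X clusters of replicate 1, 1142 of 1260 overlapped one of replicate 2 by at least 1 base (90.6%, 95% Wilson interval 88.9 to 92.1). Of those of replicate 2, 1164 of 1324 overlapped one of replicate 1 (87.9%, interval 86.0 to 89.6). The intervals take in counting error and nothing else. The autosomal shares were close to these, at 92.3% in replicate 1 and 88.8% in replicate 2. The bases covered in both were 78.5% of those covered in either on X, against 84.8% on the autosomal arms, where single arms ranged between 83.7% on 2L and 85.2% on 3L. This is 1 value per arm, so the difference was not tested. X clusters seen in a single library had median widths of 1599 bases in replicate 1 and 1608.5 bases in replicate 2.

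The agreement varied along X. It was lowest at 14.0 to 14.5 Mb, where 50.8% of the bases covered in either library were covered in both, and at 20.5 to 21.0 Mb (58.1%) and 3.0 to 3.5 Mb (58.7%). It was highest at 2.5 to 3.0 Mb (91.6%) and 11 to 11.5 Mb (90.7%). Windows of wide clusters agreed better (rho 0.74, r 0.73, 44 windows, as a description), as did windows of high scores (rho 0.84, r 0.77). The windows with the largest change between libraries were 3.0 to 3.5 Mb, covered to 20.8% in replicate 1 and 15.9% in replicate 2, and 20.5 to 21.0 Mb, with 19.1% and 15.2%.

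The combined list held X sequence that neither library had. Of its X bases, 67.8% lay in clusters of both libraries, 18.1% in those of 1 and 14.2% in those of neither. On the autosomal arms the values were 76.3%, 13.3% and 10.4%. By window, the sequence added beyond both libraries took between 0.728% and 10.7% of the window, with a median of 4.57%. It was largest at 14.5 to 15.0 Mb, where the combined list covered 37.4%, against 22.3% in replicate 1 and 21.7% in replicate 2.

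Set against 2L, 2R, 3L and 3R together, X had a lower coverage and a smaller spread between windows in both libraries. The arm 2L was close to X, with a coverage of 26.3% ± 0.079 and an SD between windows of 10.8 ± 0.21 points (SD, n = 2). In the combined list X, at 33.0%, was above 2L, at 32.1%. The mean difference in coverage was -3.39 points ± 0.20, from 25.4% ± 0.23 on X and 28.8% ± 0.43 on the autosomal arms (SD, n = 2; exact permutation test over the libraries, p = 0.5, the smallest possible). It was -1.67 points in the combined list, and -0.468 points, with opposite signs in the libraries, when only the upper-scoring clusters of a list, from its median upwards, were kept. The SD between 500 kb windows was 10.2 ± 0.20 points on X and 12.0 ± 0.16 points on the autosomal arms (same exact permutation test, p = 0.5). The difference of -1.82 points shrank to -0.191 points with windows of 250 kb, to -0.509 points with windows shifted by 250 kb and to -0.645 points without the 2 Mb at the centromere side.

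The X windows lay within the range of the autosomal ones. Of the 44 X windows, 9 were covered to over 35% (20.5%), against 60 of 192 autosomal windows (31.2%). Windows under 10% numbered 4 on X (9.09%) and 11 on the autosomal arms (5.73%). The densest X window ranked 7 among all 236 windows, of which 44 were on X. Among the 20 densest windows 1 was on X, and among the 20 emptiest 6 were, which was not tested. The windows ranked 1 to 8 from the emptiest all lay near the centromere side of 2L, 2R or 3L. Of the 6 on X, only that at 21.5 to 22.0 Mb lay there, and the others were inside the arm. The highest autosomal window reached 61.7%, on 3R, and the lowest 0.427%, on 3L.

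**Figure D5:**
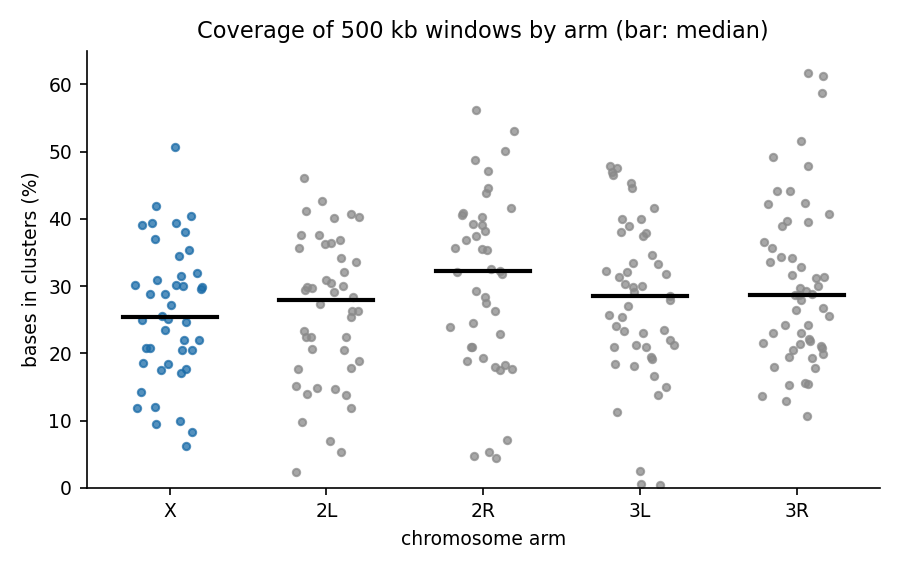
Share of bases in clusters (%) in each full 500 kb window, as the mean of both libraries, for X (blue) and the large autosomal arms (grey). Each point is 1 window and black bars are medians; the X windows lie between 6.19% and 50.7%.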

How the data were processed

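H3K79me3 ChIP-seq of fly head nuclei was analysed from 3 deposited lists of regions of significant enrichment, 1 for each of the 2 ChIP libraries and 1 for the replicate set, on FlyBase release 5 per the file headers. No list was analysed for the inputs. Each region carries a score given by the authors, used as deposited and compared only within its list, mostly as a percentile. The submitters' processing notes list Bowtie 0.12.7 with no role. The caller, its threshold, the scale of the score and the way replicates were combined were not given in the sources used here. Depth is unknown.

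Covered share, width, gaps and windows of 500 kb were computed for X and for 2L, 2R, 3L and 3R. Mean and SD are over both libraries. X was compared with the arms by a two-sided exact permutation test over the libraries, which cannot give p below 0.5. Relations across windows are descriptions. Regions named are the 5 densest and 5 emptiest windows, all X clusters over 20000 bases in a library, the 5 longest of the combined list, the 5 longest empty stretches and the 5 highest scores. The members, the measures and this rule were chosen with earlier results of these data known. Gene names and sequences are not given, since only a release 6 gene table was at hand. The alternatives were the combined list, single replicates, a score filter, joining, other windows, limits and ends. The code was tested on simulated data. It ran on Python 3.11.15 with scipy 1.17.1, numpy 2.4.6, matplotlib 3.10.9 and pandas 2.3.3.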

Additional observations from a re-analysis of the deposited data

How the results depend on the processing

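The 6 differences that were tested, as means of the libraries, kept their sign under the 42 alternatives tried, but coverage had opposite signs in the libraries under the score filter (mean -0.468 points, exact permutation p = 1). In the combined list, which has no replicates, the difference of X from the autosomal arms was -1.67 points for coverage, -1.70 points for the SD between windows, -117.5 bases for the median width and -2.43 points for the share of clusters over 20 kb. In that list the last 2 Mb of X differed from the rest by -17.6 points. Leaving out each replicate gave -3.53 to -3.25 points for coverage and -442.5 to -145 bases for the median gap, larger in replicate 1 than in replicate 2. These alternatives are the single libraries, whose signs were already known to be the same, so they add no separate check. With only the upper-scoring clusters of each list, from its median upwards, the differences were -1524.5 bases in width and -2873 bases in gap. The shift of windows by 250 kb gave -0.509 points for the SD between windows. The last 1 Mb of X differed from the rest by -19.3 points and the last 4 Mb by -6.02 points. Across 5 settings, with the single libraries among them, at least 4 of the 5 densest and 4 of the 5 emptiest windows remained. The window at 1.5 to 2.0 Mb was densest in each. The emptiest window was at 7.0 to 7.5 Mb, except in the combined list, where it had 9.82% and the window at 21.5 to 22.0 Mb had 9.49%. With windows of 1 Mb the weak relation of a window to the next was -0.030 and to the one after it -0.146 (Spearman's rho). Where an overlap had to span 50% of both clusters, 75.7% of X clusters of replicate 1 and 72.1% of replicate 2 were shared. No paired analysis was possible between ChIP and input libraries because no list of regions was analysed for the input libraries. The tested differences were each taken within a ChIP library, between parts of the genome. Depth is unknown, so no counting limit can be given for clusters near the authors' threshold.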

Other observations

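The separate heterochromatic sequence XHet, of 204112 bases, held 3 clusters in replicate 1, 3 in replicate 2 and 5 in the combined list, which covered 3.80%, 4.38% and 5.73% of it. The piece of X beyond its last full window, 422827 bases next to the centromere side, held 3 clusters in replicate 1, 4 in replicate 2 and 12 in the combined list, which covered 3.27%, 4.07% and 6.79%. X clusters nevertheless reached close to both ends of the sequence: the first started at 23869 in replicate 1 and 24174 in replicate 2, and the last ended 5913 and 5869 bases before the end.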
